A study of Homo sapiens with 60 samples.

Results

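The genes described are 27 genes of cholesterol synthesis and its control, taken by symbol from a list of pathway members among the 60675 genes of the table. All 27 had a row and passed the filter on low counts, next to 16763 genes tested in all. By pathway step they are 6 early mevalonate enzymes, 2 prenyl diphosphate synthases, 3 enzymes from squalene to lanosterol, 9 genes from lanosterol to cholesterol, 4 regulators and 3 further genes. The working name of the set also speaks of uptake, but no member encodes a receptor that takes up lipoprotein, so the set is called cholesterol synthesis genes here.

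The series holds 60 RNA-seq libraries of HT29, an established human colorectal adenocarcinoma cell line, collected 24 h after the addition of 1 of 8 herbal extracts or of vehicle. The 3 vehicle libraries received DMSO, given as 0.1% in the sample labels and as 2% in the series text. The water extracts were 2 formulas of several herbs, Sayeok-tang with n = 3 and Bojungikgi-tang with n = 2 at each dose. With n = 3 at each dose there were ethanol extracts of Scutellariae Radix (skullcap root), of Pinelliae Tuber (the tuber of Pinellia), of Zingiberis Rhizoma (dried ginger) and of its fresh form, Zingiberis Rhizoma Recens. Each was given at 500 (high), 100 (medium) and 20 µg/mL (low). Coptidis Rhizoma (goldthread rhizome) and Zizyphi Fructus (jujube fruit) were ethanol extracts with n = 1 per dose. Zizyphi Fructus was given at the same 3 doses, and Coptidis Rhizoma at 320, 64 and 12.8 µg/mL. All libraries share the cell line and its medium with 10% serum. Replicates carry numbers in the labels, with no word on whether each was its own culture. The p-values therefore reflect how far these libraries spread, which may be technical.

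Cells make cholesterol from acetyl-CoA through mevalonate, farnesyl diphosphate, squalene and lanosterol. When sterols in the endoplasmic reticulum are low, the escort protein SCAP carries the transcription factor precursor SREBP-2, encoded by SREBF2, to the Golgi, where it is cleaved and released to switch on genes of the pathway. INSIG1 and INSIG2 hold SCAP in the endoplasmic reticulum when sterols are plentiful, and INSIG1 is itself a target of the factor. SREBP-2 is known to act with the factors NF-Y, which binds CCAAT boxes, and Sp1, which binds GC boxes.

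Total counts ranged from 18.02 M to 35.82 M per library (median 24.46 M). Summed epithelial markers (EPCAM, CDH1, KRT8, KRT20, VIL1, LGALS4, CDX1) ranged from 6451 to 9591 CPM (counts scaled to a library's total), although CDX1 alone stayed between 0.275 and 2.16 CPM. Summed fibroblast markers stayed between 1.52 and 3.37 CPM, leukocyte markers between 3.19 and 14.1 CPM and endothelial markers between 0.471 and 2.87 CPM. COL1A2 was at 0 in 58 of 60 libraries, CD3E in 58 and CDH5 in 56. COL1A1, LUM, CD68, CD79A and PECAM1 of the same lists were above 0 in all 60 libraries. The sums came mostly from COL1A1 and LUM, from CD68 and from PECAM1, which alone ranged from 0.471 to 2.87 CPM. Of the libraries tested, 3 stood apart. Vehicle replicate 1 had 7.20% of its counts in ribosomal protein genes and Scutellariae Radix low-dose replicate 3 had 9.35%, against a median of 5.62% over all libraries. Pinelliae Tuber high-dose replicate 2 had 14.3% of its counts in mitochondrial genes, against 8.01% and 7.18% in its group and a median of 7.27%. Vehicle carries a sample code set of its own, while extracts share a set in pairs, so a difference between extract and vehicle cannot be told apart from one between code sets. Contrasts of high with low dose of an extract lie within 1 code set. In bulk RNA, fewer cells of a kind and less RNA per cell cannot be told apart either.

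All 27 genes were expressed in vehicle-treated cells (the plot of levels in the vehicle libraries). Per kb of exon, SQLE, the squalene epoxidase and a rate-limiting step, stood highest at 183 ± 6.78 CPM per kb (SD, n = 3). DHCR7, which reduces 7-dehydrocholesterol to cholesterol, followed at 106 ± 5.10, and CYP51A1, the lanosterol demethylase, at 65.3 ± 1.00. These 3 did not overlap each other or the genes below. HMGCS1, the synthase that makes HMG-CoA, at 54.04 ± 4.84, and FDPS, which makes farnesyl diphosphate, at 53.7 ± 1.86, overlapped. From TMEM97 (48.5 ± 1.74), a sterol-responsive membrane protein, down to MSMO1 (37.4 ± 0.184), the sterol C4-methyl oxidase, each gene overlapped the next below it, and SREBF2 stood among them at 38.6 ± 2.80. The lowest was HSD17B7, the 3-keto sterol reductase, at 3.89 ± 0.297, below INSIG2 at 7.67 ± 0.197.

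**Figure D1:**
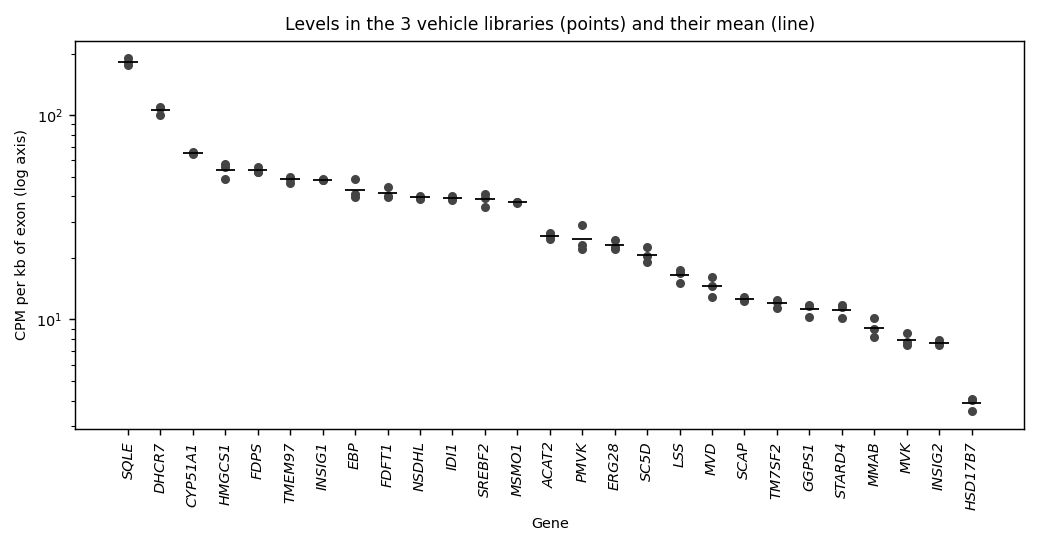
Level of each of the 27 genes in vehicle-treated HT29 cells, in CPM per kb of exon on a log axis, with points for the 3 vehicle libraries and a line for their mean. The genes run from SQLE at 182.6 to HSD17B7 at 3.89 CPM per kb.

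A RefSeq promoter window of 250 bases before to 50 bases after the start (GRCh38.p14) was matched for 24 of the 27 genes, not for ACAT2, SQLE and FDFT1. Some genes have over 1 window (32 windows in all), and a gene was counted where any of its windows held the letters. The letters CCAAT, on either strand, were present in 20 of these 24 genes (83.3%), against 39.7% of 27305 genes with a window of the same length. By window they were present in 22 of 32, against 34.6% of 35116 windows. GGGCGG, on either strand, was present in 23 of 24 (95.8%) against 48.3%. The sterol element core TCACNCCAC, on either strand, was present in 1 of 24 (4.17%) against 1.39%, as TCACCCCAC in SREBF2. Such matches describe these windows only. The 27305 genes were not limited to genes expressed in these cells, while the 24 were all expressed, so the shares compare unlike sets. Windows are shown for genes on which the results below turn: HMGCS1 and INSIG1, which moved in opposite directions under Pinelliae Tuber and Scutellariae Radix, MVK and MMAB, which are divergent neighbours, and SREBF2, which was called in 1 of 27 contrasts. Capitals mark the letters of CCAAT on either strand and, in SREBF2, those of the sterol element core. All read 5′ to 3′ on the gene's strand.
HMGCS1, chr5:43313363-43313662, minus strand: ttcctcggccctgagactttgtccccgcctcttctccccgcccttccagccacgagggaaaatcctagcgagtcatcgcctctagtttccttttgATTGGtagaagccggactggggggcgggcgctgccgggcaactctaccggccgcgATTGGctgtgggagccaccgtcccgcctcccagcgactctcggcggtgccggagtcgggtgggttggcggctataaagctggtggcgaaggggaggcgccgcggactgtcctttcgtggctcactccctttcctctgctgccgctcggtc
INSIG1, chr7:155297628-155297927, plus strand: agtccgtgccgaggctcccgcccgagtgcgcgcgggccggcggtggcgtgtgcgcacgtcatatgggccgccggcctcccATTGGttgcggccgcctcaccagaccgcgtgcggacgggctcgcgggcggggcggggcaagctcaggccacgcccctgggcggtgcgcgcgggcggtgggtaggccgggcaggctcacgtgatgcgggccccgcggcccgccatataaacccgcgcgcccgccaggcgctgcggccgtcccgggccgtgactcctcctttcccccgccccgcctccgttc
MVK, chr12:109573544-109573843, plus strand: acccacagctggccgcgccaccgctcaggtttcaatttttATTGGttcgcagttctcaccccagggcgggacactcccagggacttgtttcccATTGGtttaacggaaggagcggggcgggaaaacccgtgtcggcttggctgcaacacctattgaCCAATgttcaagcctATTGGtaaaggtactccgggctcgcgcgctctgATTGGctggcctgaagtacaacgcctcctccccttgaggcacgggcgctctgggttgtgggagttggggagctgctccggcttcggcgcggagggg
MMAB, chr12:109573455-109573754, minus strand: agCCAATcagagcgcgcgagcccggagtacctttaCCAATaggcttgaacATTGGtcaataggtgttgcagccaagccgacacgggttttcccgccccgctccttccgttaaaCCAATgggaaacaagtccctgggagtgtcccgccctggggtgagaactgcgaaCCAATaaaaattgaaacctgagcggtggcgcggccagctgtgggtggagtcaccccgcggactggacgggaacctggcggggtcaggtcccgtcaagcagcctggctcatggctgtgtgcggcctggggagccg
SREBF2, chr22:41832855-41833154, plus strand: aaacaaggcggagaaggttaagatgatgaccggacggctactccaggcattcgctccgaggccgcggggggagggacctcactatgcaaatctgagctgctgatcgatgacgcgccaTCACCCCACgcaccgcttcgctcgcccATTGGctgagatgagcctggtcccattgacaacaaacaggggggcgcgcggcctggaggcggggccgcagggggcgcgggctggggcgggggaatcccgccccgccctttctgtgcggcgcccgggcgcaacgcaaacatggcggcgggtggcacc

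HMGCS1 has 2 such CCAAT matches in the window shown and 0 in its other window (chr5:43313132-43313431). INSIG1 and SREBF2 have 1 each. The MVK and MMAB windows overlap on opposite strands, and the 5 matches in each are the same 5 sites read from either strand. The share of genes with CCAAT given above counts both genes. MVK encodes mevalonate kinase and MMAB an enzyme of vitamin B12 metabolism. Their exons also overlap on opposite strands, as do those of ACAT2 and TCP1, TMEM97 and IFT20, GGPS1 and ARID4B, and FDPS and RUSC1-AS1. The library kit keeps strand, but no source used here gives the strand setting of the counting. Reads of such partners may therefore not be told apart. HSD17B7, FDPS and CYP51A1 have near-identical pseudogene copies, which makes their counts less certain.

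Most of the pathway was lower with Pinelliae Tuber and higher with Scutellariae Radix (the map of fold changes). At the high dose against vehicle, 23 of 27 genes fell with Pinelliae Tuber and 0 rose, with a median log2 fold change of -0.54 over the 27 and 0.01 over all genes tested. Of all genes, 2.89% fell in that comparison. With Scutellariae Radix at the high dose 20 of 27 rose and 0 fell, with medians of 0.38 and -0.02, where 11.4% of all genes rose. Calls are edgeR quasi-likelihood tests at a Benjamini-Hochberg adjusted p under 0.05 over 16763 genes, in a fit of 54 libraries. Shares of all genes called are given for these calls only. Counts at an unadjusted p under 0.05, with DESeq2 or under other settings have no such share beside them. All 18 contrasts with vehicle share the same 3 vehicle libraries, so they are not independent of each other.

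**Figure D2:**
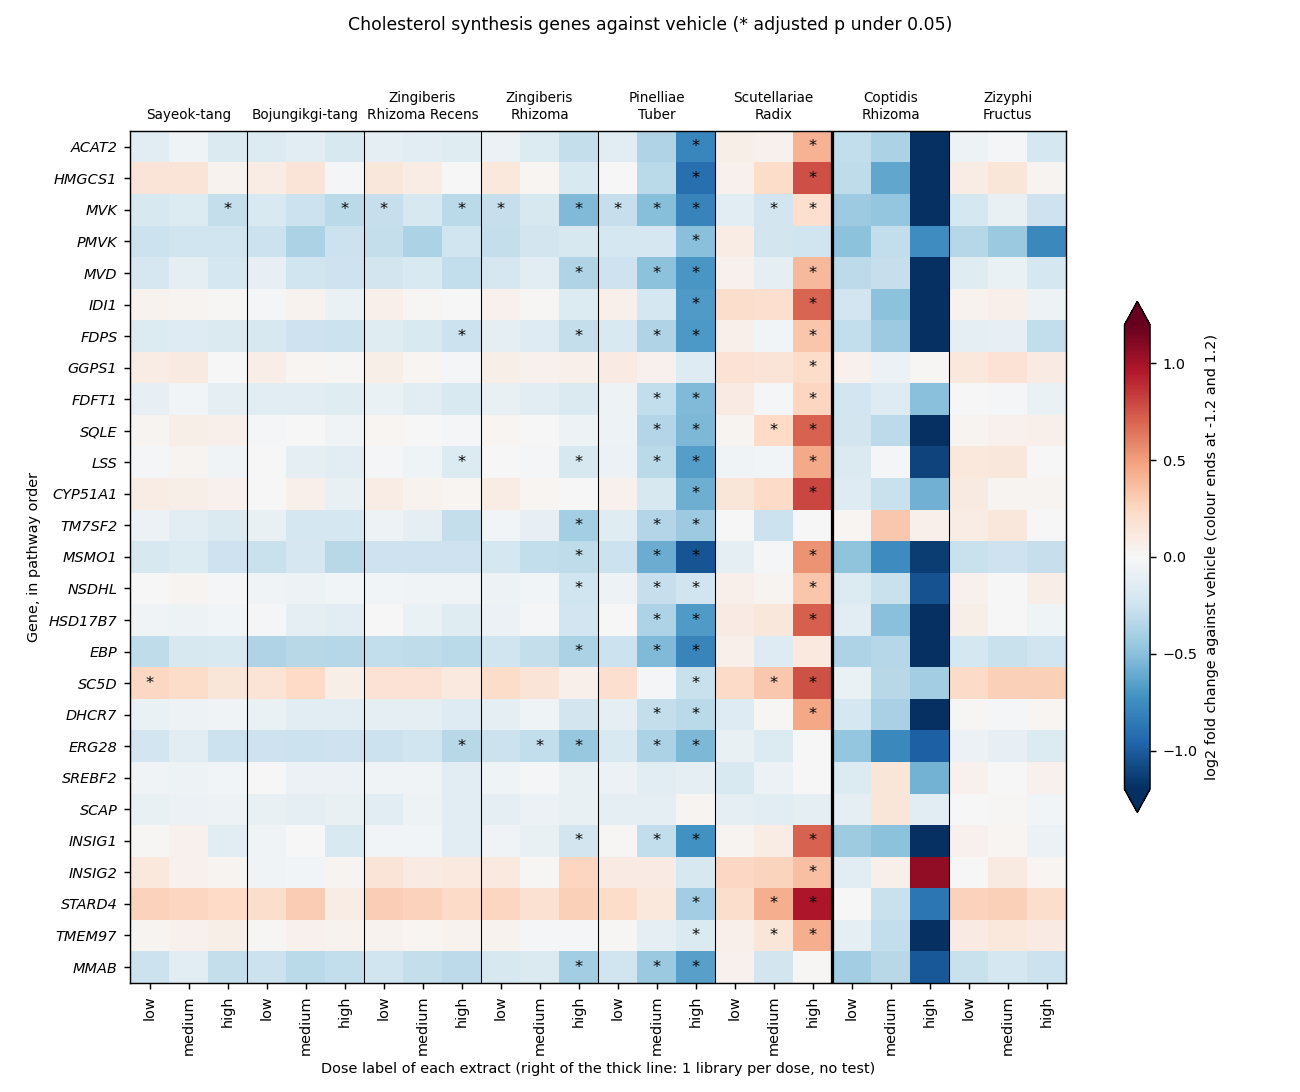
Log2 fold change of the 27 genes (rows, in pathway order) against vehicle for each extract and dose (columns), with an asterisk where the adjusted p is under 0.05 and colours ending at -1.2 and 1.2. The 3 columns of Pinelliae Tuber deepen to blue, with 23 asterisks at the high dose. Scutellariae Radix is mostly red at the high dose, with 20 asterisks, while its low and medium doses have medians of only 0.06 and 0.02. The 6 columns right of the thick line are single libraries without a test.

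Of the early mevalonate enzymes, all 6 fell with Pinelliae Tuber at the high dose (median log2 fold change -0.74). HMGCS1 was at 228, 262 and 272 CPM in the 3 vehicle libraries and at 167, 78.9 and 158 CPM with Pinelliae Tuber. Its log2 fold change was -0.91 (SE 0.11, adjusted p = 2.1e-07). The library with the high mitochondrial share held the lowest of the 3 values, and all 3 lay below all 3 vehicle libraries. MVK was at 55.7, 49.9 and 48.7 CPM in vehicle and at 30.1, 28.2 and 28.5 CPM, a change of -0.80 (SE 0.07, adjusted p = 1.2e-10). MVD, which decarboxylates mevalonate diphosphate, went from 76.4, 68.8 and 60.3 CPM to 40.7, 42.2 and 41.0 CPM, with -0.69 (SE 0.10, adjusted p = 6.1e-06). For both genes the groups did not overlap and the 3 treated libraries lay close together. ACAT2, the cytosolic thiolase that makes acetoacetyl-CoA, fell by 0.78 on the log2 scale, IDI1, the isopentenyl diphosphate isomerase, by 0.68 and PMVK, phosphomevalonate kinase, by 0.50.

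Of the prenyl diphosphate synthases, FDPS fell and GGPS1, which makes geranylgeranyl diphosphate, was at -0.16 (SE 0.07, adjusted p = 0.21). FDPS was at 208, 195 and 197 CPM in vehicle and at 135, 100.2 and 133 CPM with Pinelliae Tuber at the high dose, without overlap, a change of -0.68 (SE 0.07, adjusted p = 5.7e-09). From squalene to lanosterol all 3 enzymes fell. SQLE was at 757, 785 and 816 CPM in vehicle and at 567, 467 and 558 CPM with Pinelliae Tuber, with -0.54 (SE 0.04, adjusted p = 2.9e-12). LSS, lanosterol synthase, was at 109, 126 and 122 CPM and at 79.4, 66.2 and 75.8 CPM, with -0.66 (SE 0.05, adjusted p = 1.3e-13). Neither gene's groups overlapped. FDFT1, squalene synthase, fell by 0.53 on the log2 scale.

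All 9 genes from lanosterol to cholesterol fell (median -0.54). MSMO1 fell from 108, 109 and 108 CPM in vehicle to 62.3, 32.8 and 62.6 CPM, with -1.03 (SE 0.10, adjusted p = 3e-09). Its vehicle libraries lay close together, its treated libraries spread more widely, and replicate 2 held the lowest value. HSD17B7 was at 19.3, 19.5 and 17.0 CPM in vehicle and at 12.3, 8.29 and 14.0 CPM, with -0.68 (SE 0.09, adjusted p = 4.4e-06). ERG28, a scaffold for the C4-demethylation enzymes, was at 64.5, 58.4 and 59.7 CPM and at 40.6, 38.9 and 43.3 CPM, with -0.54 (SE 0.08, adjusted p = 1.8e-05). SC5D, the lathosterol desaturase, had a smaller change of -0.26 (SE 0.06, adjusted p = 0.012). Its libraries at 102, 71.9 and 109.7 CPM overlapped those of vehicle at 106, 114 and 125 CPM. The other 5 were EBP, the sterol isomerase (-0.79), CYP51A1 (-0.59), TM7SF2, a sterol C14-reductase (-0.44), DHCR7 (-0.33) and NSDHL, the C4-decarboxylating dehydrogenase (-0.24).

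Among the regulators only INSIG1 fell in this test. It was at 175, 178 and 176 CPM in vehicle and at 112, 89.0 and 114 CPM, without overlap, a change of -0.72 (SE 0.05, adjusted p = 1.3e-13). SREBF2 was at 269, 311 and 295 CPM and 258, 284 and 249 CPM, with -0.11 (SE 0.07, adjusted p = 0.35). The values for SCAP and INSIG2 were 0.03 and -0.19, with adjusted p = 0.81 and 0.32. Of the further genes, MMAB fell by 0.65, STARD4, which carries cholesterol between membranes, by 0.41 and TMEM97 by 0.17 on the log2 scale.

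The replicate with the high mitochondrial share enters every Pinelliae Tuber high-dose value. Without it, 21 of 27 genes were called against vehicle, all lower. PMVK (log2 fold change -0.39), SC5D (-0.15) and STARD4 (-0.18) were no longer called (each was also lost without at least 1 vehicle library), SREBF2 (-0.23) was, and HMGCS1 and MSMO1 went to -0.67 and -0.82. CYP51A1 went to -0.39. DHCR7 and NSDHL moved the other way, to -0.51 and -0.37. The DHCR7 call was lost without high-dose replicate 1, and the NSDHL call without high-dose replicates 1 or 3 or vehicle replicates 1 or 2. Without all 3 libraries that stand apart, 22 genes were called, all lower. When the spread was estimated only from the 6 libraries of the comparison, 0 of 27 were called by edgeR, with 18 at an unadjusted p under 0.05 and a lowest adjusted p of 0.178. DESeq2 on the 54 libraries called 23.

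With Scutellariae Radix at the high dose 5 of the 6 early mevalonate enzymes rose (median 0.40). HMGCS1 reached 444, 431 and 416 CPM, above every vehicle library, with 0.77 (SE 0.11, adjusted p = 3.9e-07). MVK stood at 60.6, 59.5 and 56.0 CPM, just above its highest vehicle library, with 0.20 (SE 0.07, adjusted p = 0.032). MVD stood at 98.6, 90.5 and 78.0 CPM, also above all of vehicle, with 0.38 (SE 0.09, adjusted p = 0.0022). IDI1 rose by 0.70 and ACAT2 by 0.41, and PMVK was at -0.24 (SE 0.15, adjusted p = 0.25). Both prenyl diphosphate synthases rose. FDPS was at 266, 245 and 242 CPM, above the vehicle libraries, with 0.34 (SE 0.07, adjusted p = 0.00034), and GGPS1 rose by 0.22.

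The 3 enzymes from squalene to lanosterol rose too. SQLE stood at 1260.0, 1258 and 1305 CPM, with 0.71 (SE 0.04, adjusted p = 7.1e-17). LSS stood at 170.2, 161 and 157 CPM, with 0.46 (SE 0.05, adjusted p = 3.4e-10). In both the 3 treated libraries lay above all 3 of vehicle. FDFT1 rose by 0.26 on the log2 scale.

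From lanosterol to cholesterol 6 of 9 genes rose. SC5D, whose change with Pinelliae Tuber was small, stood at 190.4, 184 and 208 CPM, with 0.76 (SE 0.06, adjusted p = 9.7e-13). MSMO1 stood at 160.2, 153 and 156 CPM, with 0.54 (SE 0.10, adjusted p = 8.3e-05). HSD17B7 stood at 32.1, 28.8 and 30.6 CPM, with 0.72 (SE 0.09, adjusted p = 2e-08). None of these overlapped vehicle. CYP51A1 rose by 0.80, DHCR7 by 0.46 and NSDHL by 0.33. The 3 others, ERG28, TM7SF2 and EBP, had values of 0.00, -0.01 and 0.11 and were not called. ERG28 stood at 57.8, 57.4 and 66.0 CPM, on both sides of the vehicle range.

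INSIG1 and INSIG2 rose with Scutellariae Radix, and SREBF2 and SCAP were not called. INSIG1 stood at 292, 277 and 289 CPM, with 0.71 (SE 0.05, adjusted p = 2e-14), and INSIG2 rose by 0.36. SREBF2 stood at 286, 294 and 288 CPM, with 0.00 (SE 0.07, adjusted p = 0.98). STARD4 rose furthest of the 27 against vehicle, with 0.97 (SE 0.11, adjusted p = 2.1e-09). It stood at 125, 119.6 and 125 CPM, from 57.7, 65.2 and 67.0 CPM in vehicle. Low-dose replicate 1 of the extract already stood above vehicle, at 77.1 CPM. At the high against the low dose, the largest rise of any of the 27 was 0.76 on the log2 scale. Against vehicle TMEM97 rose by 0.44, and MMAB was at 0.02 (adjusted p = 0.93). Leaving out each of the 6 libraries in turn gave 17 to 20 calls. MVK, GGPS1 and INSIG2 were each lost without at least 1 of these libraries, and MVK and GGPS1 also without the filter on low counts.

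**Figure D3:**
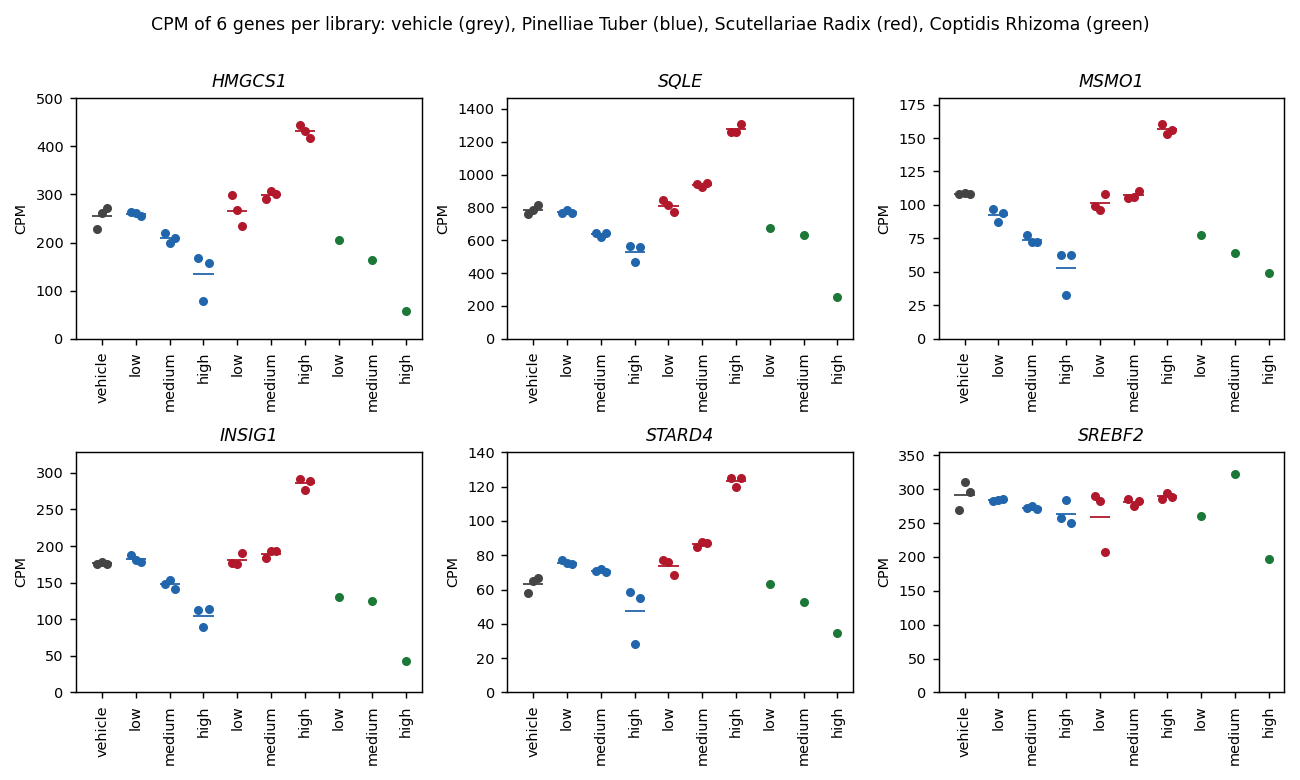
CPM of HMGCS1, SQLE, MSMO1, INSIG1, STARD4 and SREBF2 in each library (points) of vehicle (grey) and of the low, medium and high dose of Pinelliae Tuber (blue), Scutellariae Radix (red) and Coptidis Rhizoma (green, 1 library per dose), with a line for the mean of 3. For the first 5 genes the high doses of Pinelliae Tuber and Scutellariae Radix lie apart, while SREBF2 stays between 196 and 323 CPM.

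At the medium dose 15 of 27 genes fell with Pinelliae Tuber against vehicle (median -0.30, 0.00 over all genes), where 1.06% of all genes fell. MSMO1 was at 77.8, 72.1 and 72.1 CPM, with -0.59 (SE 0.10, adjusted p = 0.00065). SQLE was at 641, 622 and 642 CPM, with -0.35 (SE 0.04, adjusted p = 1.2e-06). INSIG1 was at 148, 154 and 142 CPM, with -0.30 (SE 0.05, adjusted p = 0.00068). Each of these lay between the low and the high dose. Without vehicle replicate 1 the medium dose had 5 calls, and without any 1 of its own 3 replicates 9. At the low dose only MVK fell, with -0.28 (SE 0.07, adjusted p = 0.047), where 0.304% of all genes fell. That call was lost without any 1 of its 6 libraries except vehicle replicate 3.

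With Scutellariae Radix at the medium dose 4 of 27 genes rose against vehicle, where 4.9% of all genes rose. They were STARD4 (0.44), SC5D (0.33), SQLE (0.24) and TMEM97 (0.15). In medium-dose replicate 1 STARD4 was at 85.0 CPM and SC5D at 144 CPM. STARD4 was at 57.7, 65.2 and 67.0 CPM in vehicle, and at 88.9, 71.9 and 77.3 CPM at the low dose of Sayeok-tang. SC5D was at 106, 114 and 125 CPM in vehicle and at 149, 139 and 137 CPM at that low dose. Values above vehicle in STARD4 and SC5D were therefore not particular to Scutellariae Radix. MVK fell, by 0.22 on the log2 scale (adjusted p = 0.034), where 4.64% of all genes fell. Without vehicle replicate 1, or without medium-dose replicate 3, 3 genes were called. Without the 3 libraries that stand apart 10 were, 9 of them higher. No share of all genes is given for these fits. SQLE stood at 942, 927 and 948 CPM, between the low and high dose. At the low dose 0 of 27 were called by edgeR, where 0.382% of all genes were. There, 5 of the 27 were at an unadjusted p under 0.05 and 1 was called by DESeq2, neither with a share of all genes beside it.

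High against low dose of the same extract needs no vehicle library and stays within 1 code set (the plot of high against low dose). With Pinelliae Tuber 19 of 27 genes were lower at the high dose and 0 higher (median -0.47, 0.00 over all genes), where 0.626% of all genes were lower. INSIG1, at 188, 181 and 178 CPM at the low dose, differed by -0.73 (SE 0.05, adjusted p = 1.6e-13). HMGCS1, at 263, 262 and 254 CPM, differed by -0.91 (SE 0.11, adjusted p = 3e-07). SC5D, at 136, 135 and 136 CPM and so above vehicle, differed by -0.47 (SE 0.06, adjusted p = 7e-06). Its high-dose libraries all lay below its low-dose ones. Without the replicate with the high mitochondrial share 18 genes were called. MVD, EBP, ERG28, TMEM97 and MMAB were each lost without at least 1 of the 6 libraries. With the spread taken only from the 6 libraries edgeR called 0 of 27, with 20 at an unadjusted p under 0.05, and DESeq2 on the 54 libraries called 21.

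With Scutellariae Radix 18 of 27 genes were higher at the high dose than at the low dose and 0 lower (median 0.33, -0.02 over all genes), where 10.7% of all genes were higher. SQLE, at 845, 817 and 771 CPM at the low dose, differed by 0.67 (SE 0.04, adjusted p = 4.3e-16). INSIG1, at 177, 176 and 191 CPM, differed by 0.68 (SE 0.05, adjusted p = 9.6e-14). SREBF2 differed by 0.18 (SE 0.07, adjusted p = 0.047), from 289, 283 and 207 CPM. Its lowest value is that of low-dose replicate 3, the library with the high ribosomal protein share, and this was its single call in 27 contrasts, lost without that library. ACAT2, MVD and FDPS were also each lost without at least 1 of the 6 libraries. The fit of only the 6 libraries called 10 of the 18, and SREBF2 was not among them.

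**Figure D4:**
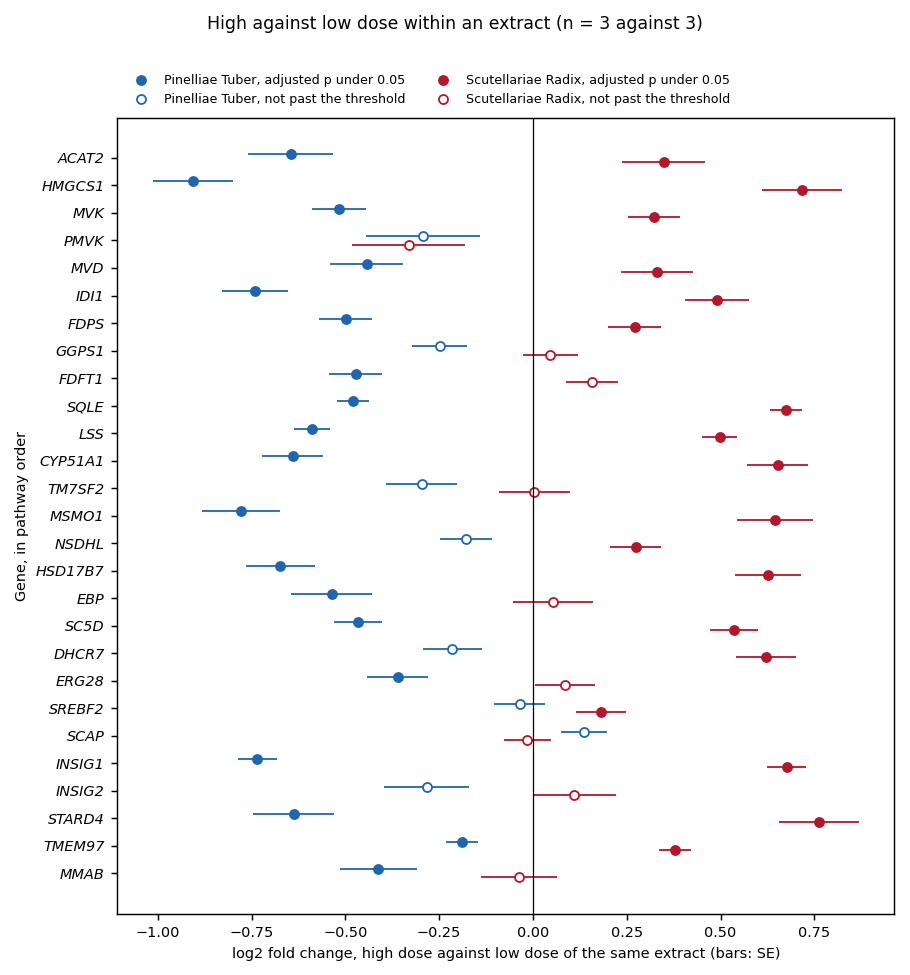
Log2 fold change of each gene at the high against the low dose of the same extract, for Pinelliae Tuber (blue) and Scutellariae Radix (red), with bars for the SE and filled points where the adjusted p is under 0.05. Blue points lie below 0 except SCAP, and 18 red points are filled above 0.

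Pinelliae Tuber and Scutellariae Radix share a code set and the 500 µg/mL dose, so they were also compared directly. Of the 27 genes 24 were lower with Pinelliae Tuber and 0 higher (median -0.996, 0.02 over all genes), where 9.9% of all genes were lower. HMGCS1 differed by -1.68 (SE 0.11, adjusted p = 5e-16), MSMO1 by -1.57 (SE 0.10, adjusted p = 9.8e-16) and INSIG1 by -1.43 (SE 0.05, adjusted p = 1.1e-24). The 3 not called were PMVK (-0.26), SREBF2 (-0.10) and SCAP (0.15). Leaving out each library in turn kept all 24 calls, and the fit of only the 6 libraries kept 19.

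The step from low to high dose itself differed between these extracts. In an interaction test chosen after the data were seen, 20 of 27 genes had a lower step with Pinelliae Tuber than with Scutellariae Radix and 0 a higher one (median -0.77, 0.03 over all genes), where 4.24% of all genes did. HMGCS1 led with a difference of -1.62 (SE 0.15, adjusted p = 1.2e-10), then MSMO1 with -1.42 (SE 0.15, adjusted p = 1.1e-09) and INSIG1 with -1.41 (SE 0.07, adjusted p = 2.1e-18). The 7 not called were PMVK, GGPS1, TM7SF2, SREBF2, SCAP, INSIG2 and MMAB. For MVK the difference was -0.84 and for its neighbour MMAB -0.37 (adjusted p = 0.091). All 20 calls remained when any 1 of the 12 libraries was left out, and 11 when these 12 alone were fitted.

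Fewer of the genes were called with the ginger extracts. With Zingiberis Rhizoma at the high dose 11 of 27 fell against vehicle and 0 rose (median -0.19, -0.01 over all genes), where 6.33% of all genes fell. MVK was at 37.4, 35.0 and 36.4 CPM, below every vehicle library, with -0.53 (SE 0.07, adjusted p = 5.3e-07). ERG28 was at 43.5, 45.0 and 46.9 CPM, with -0.45 (SE 0.08, adjusted p = 8.3e-05). The other 9 were TM7SF2 (-0.41), MMAB (-0.41), EBP (-0.38), MVD (-0.36), MSMO1 (-0.30), FDPS (-0.29), NSDHL (-0.24), INSIG1 (-0.22) and LSS (-0.19). SQLE (-0.06), CYP51A1 (0.00) and SC5D (0.06) were not called. Without vehicle replicate 1 there were 5 calls, and without the 3 libraries that stand apart 17, of which 2 were higher. The share of all genes called in those 2 fits is not given, so these changes in count may not be particular to the 27 genes.

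Against its own low dose, Zingiberis Rhizoma at the high dose had 4 of 27 genes lower and 0 higher, where 2.04% of all genes were lower. They were TM7SF2 (-0.37), MVK (-0.25), LSS (-0.19) and INSIG1 (-0.18). LSS was at 124, 124 and 122 CPM at the low dose and at 105, 109.9 and 104 CPM at the high dose, without overlap. Leaving out any 1 of the 6 libraries left 0 to 2 calls. The fit of only these libraries called 15 and the fit without the 3 libraries that stand apart 13. The share of all genes called in those fits is not given, so these higher counts may not be particular to the 27 genes. At the medium dose ERG28 alone was called against vehicle, at -0.30 (SE 0.08, adjusted p = 0.049), where 0.65% of all genes fell. At the low dose MVK alone was called, at -0.27 (SE 0.07, adjusted p = 0.03), where 1.23% of all genes fell. The ERG28 call was lost without vehicle replicates 1 or 2 or medium-dose replicates 2 or 3. The low-dose MVK call did not survive the removal of any of its own replicates or of vehicle replicates 1 or 2.

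With Zingiberis Rhizoma Recens at the high dose 4 of 27 genes fell against vehicle and 0 rose, where 3.36% of all genes fell. MVK was at 43.0, 42.3 and 40.5 CPM, with -0.32 (SE 0.07, adjusted p = 0.0042). ERG28 (-0.33), FDPS (-0.26) and LSS (-0.17) were the others, and no call held with every library left out in turn. The count ranged from 1, without vehicle replicate 1 or high-dose replicate 3, to 7 without vehicle replicate 3. At the medium dose 0 of 27 were called by edgeR, with 9 at an unadjusted p under 0.05 and 2 called by DESeq2, where 2.16% of all genes were called by edgeR. At the low dose MVK was called, at -0.28 (SE 0.07, adjusted p = 0.025), where 1.75% of all genes fell, and not without vehicle replicate 1 or low-dose replicates 2 or 3. High against low dose gave 0 calls by edgeR, 2 at an unadjusted p under 0.05 and 1 by DESeq2, where 0.489% of all genes were called by edgeR. Fresh against dried ginger at the high dose gave 0 calls by edgeR and by DESeq2, with 2 at an unadjusted p under 0.05, where 2.26% of all genes were called by edgeR. A difference between the gingers in the step from low to high dose was called in 0 of 27 by edgeR and by DESeq2. There, 1 of the 27 was at an unadjusted p under 0.05, and 0.644% of all genes were called by edgeR. The shares in this paragraph are of edgeR calls, and none is given for the unadjusted or DESeq2 counts or for fits with a library left out.

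The water extracts of formulas gave single calls. With Sayeok-tang MVK fell at the high dose, to 43.2, 44.7 and 41.7 CPM with -0.28 (SE 0.07, adjusted p = 0.018), where 1.58% of all genes fell. SC5D rose at its low dose, to 149, 139 and 137 CPM with 0.25 (SE 0.06, adjusted p = 0.022), where 1.59% of all genes rose. With Bojungikgi-tang (n = 2) MVK fell at the high dose, to 40.8 and 43.2 CPM with -0.33 (SE 0.08, adjusted p = 0.038), where 0.292% of all genes fell. Each was lost without vehicle replicate 1 and without at least 1 of its own replicates (Sayeok-tang high 1 or 3, Sayeok-tang low 1 or 2, Bojungikgi-tang high 2 or 3). SC5D was also lost without vehicle replicate 2. Leaving out 1 of the 2 Bojungikgi-tang libraries leaves a lone library, which is assumed to vary like the other groups.

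The remaining contrasts of the formulas had 0 of 27 genes called by edgeR. At an unadjusted p under 0.05 there were 4 genes for the medium dose of Sayeok-tang, 10 for that of Bojungikgi-tang and 7 for its low dose. The share of all genes at that unadjusted threshold is not given, and the shares below are of edgeR calls at an adjusted p. DESeq2 called 1, 3 and 0 of the 27 there. In these contrasts 0.793%, 1.49% and 0.424% of all genes were called by edgeR. High against low dose had 1 gene for Sayeok-tang and 2 for Bojungikgi-tang at an unadjusted p under 0.05, 0 by DESeq2, and 0.382% and 0.0656% of all genes called by edgeR. The formulas against each other at the high dose had 1 gene at an unadjusted p under 0.05, 0 by DESeq2 and 0.00597% of all genes called by edgeR. Their steps from low to high dose had 0 genes at an unadjusted p under 0.05, 0 by DESeq2 and 0% of all genes called by edgeR.

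MVK was called in more contrasts than any other of the 27 genes, in 15 of 27, of which 13 were lower. Its vehicle libraries, at 55.7, 49.9 and 48.7 CPM, are led by replicate 1, the library with the higher ribosomal protein share. In 11 of 18 contrasts with vehicle it was called, in 10 of them lower. Its call held with every library left out at the high doses of Pinelliae Tuber and Zingiberis Rhizoma and at the medium dose of Pinelliae Tuber. LSS followed with 9 calls, INSIG1 and FDPS with 8 each. At the other end, SCAP was called in 0 of 27 contrasts, with a lowest unadjusted p of 0.0203, and stayed between 72.0 and 89.3 CPM in all 60 libraries. SREBF2 and PMVK were called in 1 contrast each, and GGPS1 and INSIG2 in 2.

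Coptidis Rhizoma at its high dose, 320 µg/mL, was measured in 1 library, so its values have no replicate check and no test. Against the vehicle mean, with 0.5 CPM added to both, 19 of 27 genes were over 1.5-fold lower and 1 higher (median log2 ratio -1.11, and 0.04 over all genes). Past that fold were also 15% of all genes on the lower and 17.9% on the higher side. HMGCS1 stood at 57.3 CPM against a vehicle mean of 254 CPM (log2 ratio -2.14). INSIG1 stood at 43.0 against 176 CPM (-2.02), and SQLE at 253 against 786 CPM (-1.63). TMEM97 (-1.95), DHCR7 (-1.90) and MVD (-1.90) were also among the lowest. INSIG2 stood on the other side, at 63.9 against 30.3 CPM (1.06), the highest value of that gene in the 60 libraries. SREBF2 was at -0.57 and SCAP at -0.13. This library had 3.44% of its counts in mitochondrial genes, the lowest share of all, and the part of that in these values was not tested.

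At the medium dose of Coptidis Rhizoma, 64 µg/mL, 3 genes were over 1.5-fold lower (ERG28 -0.77, MSMO1 -0.76, HMGCS1 -0.63), where 2.96% of all genes were, and with TMM-adjusted library sizes 6 were. At the low dose, 12.8 µg/mL, 0 of 27 passed that fold, where 3.25% of all genes did, in a library with 15.2% mitochondrial counts. With Zizyphi Fructus PMVK alone was past it, at the high dose (-0.77), where 2.28% of all genes were lower. At its medium and low dose 0 of 27 were past it, where 2.05% and 2.17% of all genes were.

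Genes around the pathway were read from 3 further lists. Their calls were not checked with libraries left out or under the other settings. With Pinelliae Tuber at the high dose against vehicle 2.23% of all genes rose and 2.89% fell, and with Scutellariae Radix 11.4% rose and 12.1% fell. Of 8 genes that process SREBP or sense sterols, 2 rose and 1 fell with Pinelliae Tuber at the high dose against vehicle, and 1 rose and 2 fell with Scutellariae Radix. SREBF1, which encodes the related factor SREBP-1, was at 151, 169 and 152 CPM in vehicle, 163, 236 and 172 CPM with Pinelliae Tuber and 121, 113 and 111 CPM with Scutellariae Radix. It changed by 0.33 (SE 0.10, adjusted p = 0.039) and -0.44 (SE 0.10, adjusted p = 0.00062), opposite in sign to most of the 27 genes. The Pinelliae Tuber and vehicle libraries overlapped, the highest value is that of the library with the high mitochondrial share, and this gene was not refitted without it. MBTPS1, a protease that cleaves SREBP, rose with Pinelliae Tuber (0.21). RNF139 and RNF145, ubiquitin ligases of the endoplasmic reticulum, changed with Scutellariae Radix by 0.33 and -0.36.

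Of 11 genes that use isoprenoids 0 were called with Pinelliae Tuber at the high dose, and 2 rose and 1 fell with Scutellariae Radix. RABGGTB, a subunit of the enzyme that attaches geranylgeranyl groups to Rab proteins, rose by 0.42, NUS1, a subunit of the dolichol synthase, by 0.29, and FNTB, a farnesyltransferase subunit, fell by 0.17 on the log2 scale. RABGGTB also rose with the high dose of both gingers (0.27 fresh, 0.33 dried).

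Of 12 tested genes of sterol transport, storage and further sterol enzymes, 1 rose and 1 fell with Pinelliae Tuber and 3 rose and 3 fell with Scutellariae Radix at the high dose. MYLIP, a ubiquitin ligase induced by the sterol receptor LXR that lowers lipoprotein uptake, was at 15.1, 15.0 and 14.4 CPM in vehicle, 25.5, 20.4 and 24.3 CPM with Pinelliae Tuber and 11.2, 11.9 and 12.5 CPM with Scutellariae Radix. The 3 groups did not overlap. MYLIP changed by 0.68 (SE 0.07, adjusted p = 7.6e-10) with Pinelliae Tuber and by -0.31 (SE 0.07, adjusted p = 0.00065) with Scutellariae Radix. With Pinelliae Tuber it was also higher at the medium (0.72) and low dose (0.32), and with Zingiberis Rhizoma at the high dose, by 0.54 (SE 0.07, adjusted p = 7e-08). NPC2, which moves cholesterol out of lysosomes, fell with both Pinelliae Tuber (-0.48) and Scutellariae Radix (-0.36), and at the high dose of Sayeok-tang (-0.31) and both gingers (-0.41 fresh, -0.28 dried). GRAMD1A, a transporter of cholesterol between membranes, fell with Scutellariae Radix, by a log2 fold change of -0.83 (SE 0.17, adjusted p = 0.00024). SCARB1, a lipoprotein receptor, rose by 0.29, LIPA, the lysosomal lipase, by 0.34 and LBR, a sterol reductase of the nuclear membrane, by 0.31.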

How the data were processed

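The 60 libraries were prepared with the MGIEasy RNA Directional kit from 1 µg of RNA with an integrity number over 7 and read as 100-base pairs, per the labels' protocols. The authors deposited RSEM expected counts per gene for hg38, and the submitters' processing notes name STAR 2.7.3a, RSEM 1.3.3, Trim Galore 0.6.5 and FastQC 0.11.9. No source used here gives the annotation release or the strand setting of the counting. The table has 210 further columns of other samples, which were not used. Between 90.0% and 92.1% of values per library were whole, and all were rounded to whole counts. Exon lengths came from GENCODE 29.

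Genes passing filterByExpr (16763) were fitted with edgeR 4.0.16 (R 4.3.3), with TMM scaling and robust quasi-likelihood, over the 54 libraries of the 19 groups with at least 2 libraries. Contrasts were 18 extract doses with vehicle, 6 high with low dose and 3 between extracts of a code set, at a Benjamini-Hochberg adjusted p under 0.05 over all genes tested. 3 interaction contrasts were added after the data were seen. Extracts with 1 library per dose were compared with the vehicle mean as log2 ratios with 0.5 CPM added. Fitting was tested on simulated data. Alternatives were DESeq2 1.42.0, its size factors, no filter, a replicate block, only the libraries compared, and leaving out libraries.

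The members and lists were chosen with earlier results of these data known. Values per library were given for the 10 members called most often in the 27 contrasts, ties by smallest p, and related genes were named where called in at least 2 contrasts. HMGCS1, STARD4, SREBF2 and MBTPS1 were described outside that rule after their values were seen. The lowest count of any member in any library was 170. 1 gene counted in a related list is not reported here by name.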

Additional observations from a re-analysis of the deposited data

Results flagged for a closer look

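The change from low to high dose differed between Pinelliae Tuber and Scutellariae Radix in 20 of the 27 genes by edgeR's interaction test, all with the lower step under Pinelliae Tuber. The contrast was chosen after the data were seen. All 20 calls remained when each of the 12 libraries was left out in turn, and 11 remained when only those 12 libraries were fitted.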

How the results depend on the processing

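Calls of a gene in a contrast numbered 170, including the 20 of the interaction contrast chosen after the data were seen. Of the 170, 168 remained with DESeq2 size factors, 152 without the low-count filter, 167 with the replicate block and 166 without the 3 libraries that stand apart. With only the libraries compared 98 remained, with DESeq2 170 and with each library left out in turn 119. No call changed sign under these settings. The causes of the changes in count below were not tested. The share of all genes called under each setting is not given, so a change in count may not be particular to these genes. Calls follow for the contrasts with vehicle at high, medium and low dose where the count moved by over 1.5 times.

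Without the low-count filter Sayeok-tang had 2 (high) and 3 (low) calls, Bojungikgi-tang 2, 4 and 1, Zingiberis Rhizoma Recens 7, 4 and 3, Zingiberis Rhizoma 3 (medium) and 0 (low), Pinelliae Tuber 0 (low), and Zingiberis Rhizoma high against low 2. Without the 3 libraries that stand apart Sayeok-tang had 3, 1 and 3, Bojungikgi-tang 5, 6 and 1, Zingiberis Rhizoma Recens 9, 4 and 6, Zingiberis Rhizoma 17, 2 and 4, Pinelliae Tuber 3 (low) and Scutellariae Radix 10 (medium) and 1 (low). There, high against low dose had 1 for Sayeok-tang, 1 for Zingiberis Rhizoma Recens and 13 for Zingiberis Rhizoma, and the gingers against each other 4. With only the libraries compared Sayeok-tang high and Bojungikgi-tang high had 0, Zingiberis Rhizoma Recens low 3, Zingiberis Rhizoma medium 0 and low 3, Pinelliae Tuber high 0 and low 0, and Scutellariae Radix medium 9. There, high against low dose had 1 for Sayeok-tang, 1 for Bojungikgi-tang, 15 for Zingiberis Rhizoma, 0 for Pinelliae Tuber and 10 for Scutellariae Radix, the gingers against each other 4, and the interaction of Pinelliae Tuber and Scutellariae Radix 11. With DESeq2 Sayeok-tang had 2 (high) and 1 (medium), Bojungikgi-tang medium 3, Zingiberis Rhizoma Recens 9, 2 and 3, Zingiberis Rhizoma low 3, Pinelliae Tuber low 2, Scutellariae Radix low 1, and Zingiberis Rhizoma Recens high against low 1. With DESeq2 size factors Zingiberis Rhizoma medium had 0 and low 2, and Pinelliae Tuber low 0. With TMM-adjusted library sizes Coptidis Rhizoma medium had 6 genes past 1.5-fold.

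No contrast had every same-numbered pair of libraries correlated over 0.1 (from -0.34 to 0.20), a cut that cannot exclude a weaker pairing. Every library correlated best with its own number in 3 contrasts. Among them was Pinelliae Tuber low against vehicle, with pairs from 0.07 to 0.20. The replicate block gave 0 calls for Bojungikgi-tang high, Zingiberis Rhizoma medium and Pinelliae Tuber low against vehicle.

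With each library left out in turn the calls against vehicle ranged from 0 to 1 for all 3 doses of Sayeok-tang. For Bojungikgi-tang they ranged from 0 to 1 (high), 0 to 2 (medium) and were 0 (low), for Zingiberis Rhizoma Recens 1 to 7, 0 to 2 and 0 to 3, and for Zingiberis Rhizoma 5 to 11, 0 to 1 and 0 to 2. For Pinelliae Tuber they ranged from 20 to 23, 5 to 14 and 0 to 2, and for Scutellariae Radix from 17 to 20, 3 to 5 and 0 to 2. High against low dose ranged from 0 to 2 for Zingiberis Rhizoma, 14 to 23 for Pinelliae Tuber and 15 to 21 for Scutellariae Radix. Pinelliae Tuber against Scutellariae Radix ranged from 24 to 25, their interaction from 20 to 23, and the remaining contrasts stayed at 0.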
